A study of Mus musculus with 39 samples.

Results

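Testes of INSL3 knockout (INSL3-KO) mice at postnatal day 23 (P23) were compared with testes labelled with the same genotype at postnatal day 8 (P8). The comparison used 6 of the 39 RNA-seq libraries of the series, 3 at each age, and asked how far germ cells and somatic cells of the testis matured without INSL3. The mice were C57BL/6J males and each library was a biological replicate per the labels. The knockout allele itself is not given in the sources used here. Testes of this genotype are described as undescended in the study, so age, position of the testis and the missing hormone cannot be told apart in the P23 libraries. As further groups, 3 wild-type (WT) testis libraries at P23 stood in the same table as the knockout libraries. The 6 testis libraries of INSL3-KI mice, 3 at P8 and 3 at P23, carried the minke whale Insl3 coding sequence in place of the mouse sequence at the mouse locus and stood in another table. WT testis at P8 was in that other table too, so that the change of WT between the ages, which would set a table against an age, was not used.

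INSL3 is a peptide hormone of Leydig cells, and its receptor RXFP2 on the gubernaculum drives the descent of the fetal testis. In the mouse, the first wave of germ cells enters meiosis in the second week after birth, passes pachytene in the third and yields round spermatids towards the fourth. Over the same weeks Sertoli cells stop dividing and build the blood-testis barrier, adult Leydig cells replace fetal ones, and macrophages settle in the interstitium.

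Each library of the 6 held between 36689418 and 41885132 counts. Insl3 (chromosome 8, 71689214 to 71690575, plus strand, GRCm38) had 0, 5 and 0 counts in the P23 knockout libraries and 20844, 25238 and 23851 in WT at P23. The libraries labelled INSL3-KO at P8 held 906, 804 and 613 counts of it, or 33.5, 33.2 and 25.1 FPKM (fragments per kilobase of transcript, scaled to library size). WT testis at P8 had 131, 139 and 110.2 FPKM in the other table. The knockout label was therefore not borne out by Insl3 at P8, whether the allele leaves a transcript is not given, and every direction from P8 given here runs from libraries so labelled. Jak3, which shares the second exon of Insl3 (71690172 to 71690575), had 96, 126 and 139 counts in these libraries and 174, 226 and 239 in the P23 knockout libraries. Rxfp2 was near its floor in the testis at both ages of the knockout label, with 9, 31 and 25 counts and then 3, 11 and 8, and had 559, 598 and 552 counts in WT at P23. Mitochondrial genes took 5.60% to 6.35% of counts in the libraries labelled P8 KO, 12.1% to 13.2% in the P23 knockout and 2.34% to 2.48% in WT at P23, and the part of this in the results was not tested. In the INSL3-KI group, P8 replicate 2 and P23 replicate 3 stood apart. Ldhc, a lactate dehydrogenase of spermatocytes, was at 2.21, 265 and 1.15 FPKM in the INSL3-KI libraries at P8 and at 1726, 1732 and 865 FPKM at P23.

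A gene was called when the edgeR quasi-likelihood test gave a Benjamini-Hochberg adjusted p under 0.01 and the fold change was at least 2. Of 18379 genes tested, 2149 were called higher at P23 (11.7%) and 1948 lower (10.6%), together 22.3%. The libraries of both ages did not overlap for 13065 genes, or 71.1% of those tested. A gene near 0 counts at an age passed the filter on low counts only through the other age, and could only be called higher there. Fold changes are log2 values on TMM-scaled counts, and the median of all genes was -0.022. Scaling on library size alone moved that median to -0.303, and scaling on the summed counts of Sertoli identity genes moved it to -0.626. FPKM values follow library size, so a gene at equal FPKM has a fitted change slightly above 0. In bulk tissue, fewer cells of a type and less RNA per cell cannot be told apart. The number of calls in many lists depends on the scaling, and counts by library size, on the Sertoli genes (the Sertoli scale) or by limma on log2(FPKM + 1) are given beside such lists. The plot of gene lists sets the share of called members beside the median difference for each group of genes, for the change with age and for the difference from WT.

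**Figure D1:**
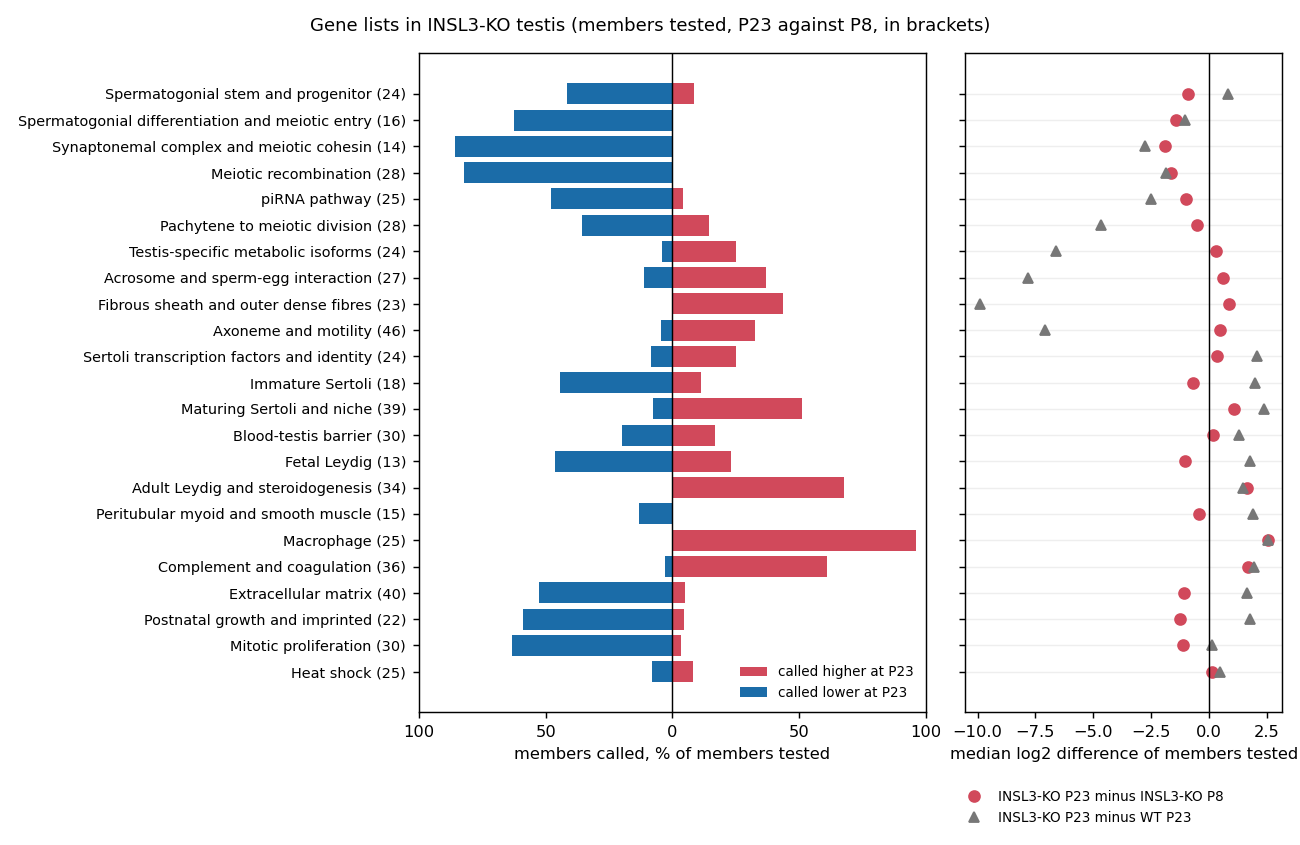
Left, share of the tested members of each gene list called higher (red) or lower (blue) at P23 than in the libraries labelled P8 KO, in percent; right, the median log2 difference of the members for P23 against P8 (circles) and for P23 knockout against P23 WT (triangles). 24 of 25 macrophage genes stood on the higher side and 23 of 28 recombination genes on the lower side, and of the lists plotted the fibrous sheath list had the lowest median against WT, -9.90. Each median runs over the members tested in its own comparison, in the fibrous sheath list 23 between the ages and 33 against WT.

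More genes of spermatogonia fell than rose. Of 24 stem and progenitor genes tested, 10 fell and 2 rose, with a median of -0.92. Gfra1, the GDNF receptor of the stem cells, had 3.87, 3.56 and 3.2 FPKM in the libraries labelled P8 KO and 1.97, 1.75 and 1.66 FPKM at P23, a log2 fold change of -0.64 that did not reach 2-fold. The transcription factor Zbtb16 likewise changed by -0.60 and the RNA-binding protein Lin28a by -0.69, neither called. All 3 were called lower on the Sertoli scale (-1.24, -1.21 and -1.29), where the list had 0 and 19 calls higher and lower. Lin28b, the relative of Lin28a, fell furthest of the list, from 6.47, 6.94 and 6.25 FPKM to 1.46, 1.69 and 1.47 FPKM (log2 fold change -1.80, SE 0.09, adjusted p = 1.62e-08). Etv5, a GDNF target expressed in stem cells and also in Sertoli cells, rose from 7.73, 7.81 and 6.85 FPKM to 18.6, 17.9 and 17.8 FPKM (log2 fold change 1.57, SE 0.06, adjusted p = 3.92e-09), a call that ended on the Sertoli scale (0.96). Id4, a marker of the stem cell pool, rose by 1.23 on the log2 scale, a call that scaling on library size or on the Sertoli genes ended. Ddx4 and Dazl, RNA-binding proteins of most germ cells, fell from 78.5 to 26.8 FPKM and from 237 to 74 FPKM on average.

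The genes that take spermatogonia into meiosis were called in one direction. 10 of 16 tested genes of differentiation and meiotic entry fell and 0 rose, with a median of -1.40. Stra8, the factor that retinoic acid induces for meiotic entry, had 144, 139 and 144 FPKM in the libraries labelled P8 KO and 28, 26 and 28.3 FPKM at P23. All libraries of the younger group were far above those of the older (log2 fold change -2.10, SE 0.04, adjusted p = 2.96e-11), and WT at P23 was lower still at 10.2, 10.6 and 10.3 FPKM. Prss50, a protease of the testis, fell from 79.1, 74.6 and 77.3 FPKM to 7.63, 9.36 and 7.06 FPKM (log2 fold change -2.97, SE 0.09, adjusted p = 4.13e-10). Meioc, which holds germ cells in meiotic prophase, fell from 28.2 to 3.71 FPKM on average. Kit, the receptor of differentiating spermatogonia, went from 25.3, 25 and 27 FPKM to 13.4, 13 and 14.5 FPKM, a log2 change of -0.62 that was not called, though it was on the Sertoli scale (-1.22). Dmrtb1, which times the switch from mitosis to meiosis, fell from 41.2, 42.1 and 41.5 to 12.9, 12.9 and 13.1 FPKM while WT at P23 held 486, 503 and 501 FPKM. In the retinoic acid list, 3 of 21 genes rose and 4 fell, beside 11.7% and 10.6% of all genes. The falls reached 9 on the Sertoli scale. Aldh1a2, the retinaldehyde dehydrogenase of germ cells, fell from 69.6 to 24.1 FPKM on average, and Aldh1a1, that of Sertoli cells, rose from 481 to 1404 FPKM. Cyp26b1, which degrades retinoic acid, was at 48.3, 47.3 and 49.6 FPKM and then 32.2, 32.2 and 31.9 FPKM and was not called.

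The promoter of Stra8 is shown because this gene reports retinoic acid in germ cells. The 250 bases before its RefSeq start lie at chr6:34920698-34920947 on the plus strand of GRCm38.p6, inside the longer GENCODE gene model (34920163 to 34939344). Capitals mark AGGTCA, the core site that nuclear receptors of the retinoic acid receptor family read, which begins 194 and 38 bases before the start.
Stra8 promoter: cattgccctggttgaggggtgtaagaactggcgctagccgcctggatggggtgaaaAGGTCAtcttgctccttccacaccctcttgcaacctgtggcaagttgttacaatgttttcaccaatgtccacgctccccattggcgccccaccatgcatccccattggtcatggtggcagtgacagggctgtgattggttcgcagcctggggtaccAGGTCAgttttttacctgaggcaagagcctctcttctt
AGGTCA or its reverse complement TGACCT occurred in 4607 of 32851 RefSeq promoter windows of this length (14%), and the match describes the letters only.

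In the synaptonemal and recombination lists the calls were falls alone. Of 14 synaptonemal complex and cohesin genes tested, 12 fell and 0 rose (median -1.90). Their summed level was 686 to 703 FPKM in the libraries labelled P8 KO, 180.3 to 187 FPKM at P23 and 937 to 972 FPKM in WT at P23. Sycp3, a protein of the axial elements, had 174, 173 and 170.2 FPKM and then 34.5, 38.7 and 40.0 FPKM (log2 fold change -1.90, SE 0.05, adjusted p = 1.22e-10), and WT at P23 had 183, 164 and 169 FPKM. Sycp1, the transverse filament, fell from 69.1, 69.7 and 70.2 FPKM to 15.7, 15 and 15.3 FPKM, with a log2 change of -1.90, and was at 75.2, 64.1 and 68.5 FPKM in WT. The P23 knockout libraries thus lay below every library of the other groups for both genes. Rad21l, a meiotic cohesin, fell furthest of the list, from 11.9, 10.4 and 10.1 FPKM to 1.23, 0.983 and 2.1 FPKM.

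In the recombination list, 23 of 28 tested genes fell and 0 rose (median -1.62). Mei1, needed for meiotic double-strand breaks, fell from 7.31, 7.35 and 8.23 FPKM to 0.739, 0.935 and 0.987 FPKM (log2 fold change -2.78, SE 0.12, adjusted p = 5.79e-09). Dmc1, the recombinase of meiosis, fell from 31.2, 30.1 and 30.5 FPKM to 5.02, 3.87 and 3.5 FPKM (log2 fold change -2.60, SE 0.12, adjusted p = 8.22e-09), with 9.34, 8.2 and 8.41 FPKM in WT at P23. Spo11, the enzyme that makes the breaks, went from 4.46, 4.98 and 4.22 FPKM to 0.424, 0.984 and 0.537 FPKM and stood at 25.1, 24.9 and 24.5 FPKM in WT. Prdm9, which places the breaks, fell from 8.28 to 1.27 FPKM on average. Hormad1, of the unsynapsed axes, fell by 1.55 on the log2 scale, and Msh4, of the crossover pathway, by 1.46. Every member called in this list and in the synaptonemal list was lower at P23, also under each other scaling tried.

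Genes of later prophase were scarce at both ages beside WT at P23. For the libraries labelled P8 KO, that distance also holds the difference in age. Of 28 pachytene and meiotic division genes tested, 10 fell and 4 rose, and their sum was 516 to 532 FPKM and then 329 to 333 FPKM, against 9013 to 9254 FPKM in WT at P23. Piwil1, the pachytene piRNA protein, was at 1.12, 1.26 and 1.13 FPKM in the libraries labelled P8 KO and 0.913, 0.959 and 0.725 FPKM at P23, with no call (log2 fold change -0.15, SE 0.19, adjusted p = 0.494). WT at P23 held 91.6, 95.4 and 93.5 FPKM of it. Ccna1, the cyclin of spermatocytes, was at 0.608, 0.403 and 0.519 FPKM, 0.764, 0.508 and 0.769 FPKM and, in WT, 94.2, 95.6 and 95.2 FPKM. Hspa2, the chaperone that spermatocytes need to leave prophase, was at 23.8, 22.7 and 24.7 FPKM and 27.5, 23.1 and 25.7 FPKM, with 428, 464 and 463 FPKM in WT. Piwil1, Ccna1 and Hspa2 were not called between the ages, and each was far below WT at P23. Among the falls in this list were Cdc25c, Plk1, Ccnb1 and Ccnb2, which act in any dividing cell.

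A small set of spermatocyte genes did rise. Ldhc had 1.07, 0.993 and 0.698 FPKM in the libraries labelled P8 KO and 15.5, 15.7 and 16.1 FPKM at P23 (log2 fold change 4.31, SE 0.15, adjusted p = 1.16e-09), and WT at P23 had 2679, 2634 and 2619 FPKM. Pgk2, the phosphoglycerate kinase of spermatocytes and spermatids, rose from 0.050, 0 and 0.0532 FPKM to 1.51, 1.94 and 1.62 FPKM (log2 fold change 5.58, SE 0.55, adjusted p = 4.63e-06) and was at 579, 553 and 566 FPKM in WT. Both rises were larger than the spread between libraries, and both ended far below the WT level. Among testis-specific metabolic isoforms, 6 of 24 tested genes of 28 rose and 1 fell, and the list median of 0.31 turned to -0.29 when libraries were scaled on Sertoli genes. The falls then reached 7, and 5 by library size, while limma gave 3 and 3 calls higher and lower. The gene that fell was Slc25a31, the ADP/ATP carrier of germ cells, from 100.4, 99.4 and 99.4 FPKM to 29.7, 34.3 and 30.4 FPKM. Pdha2, the testis pyruvate dehydrogenase subunit, was at 3.7, 4.55 and 4.22 FPKM and 1.64, 2.22 and 1.86 FPKM and was not called, though it was lower by library size (-1.12) and on the Sertoli scale (-1.44). Its somatic counterpart Pdha1 was at 22.5, 23.8 and 23.8 FPKM and 21.9, 22.8 and 23 FPKM. In the piRNA list, 12 of 25 genes fell and 1 rose (median -1.0), with 19 falls on the Sertoli scale and 0 rises by limma. The rise was Tdrd6, a tudor protein of the chromatoid body, at 0.0581 and 0.465 FPKM on average. Gpat2 fell furthest there, from 29.7, 28.7 and 28.5 FPKM to 6.12, 7.37 and 5.78 FPKM.

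**Figure D2:**
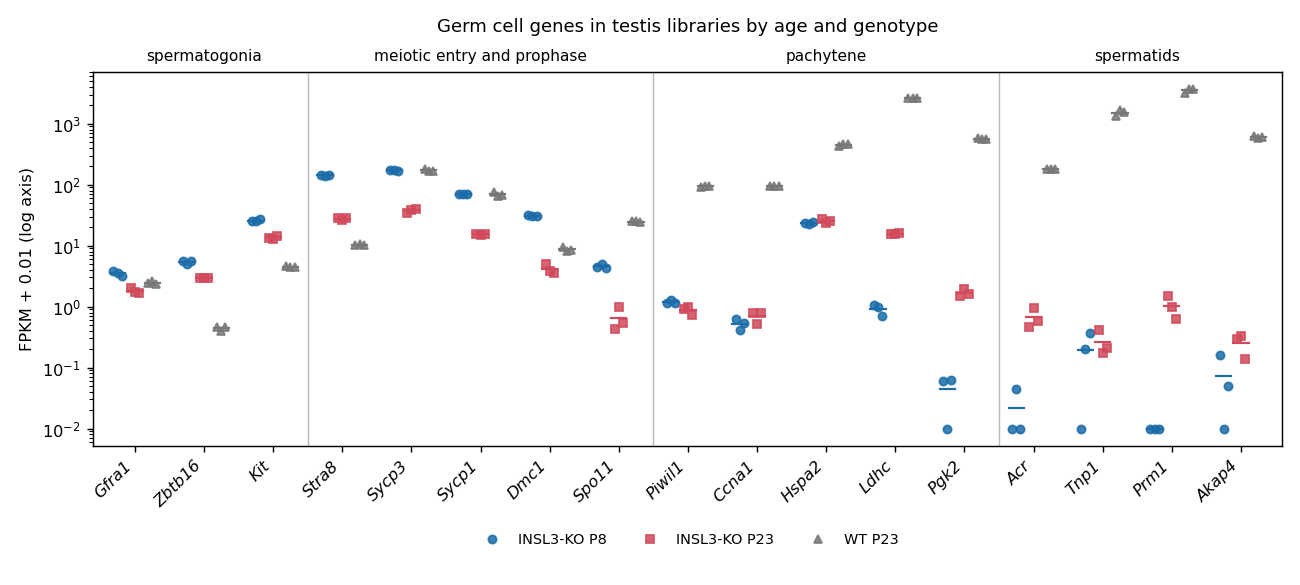
FPKM plus 0.01 on a log axis of 17 germ cell genes in each library labelled INSL3-KO at P8 (circles) and P23 (squares) and in WT at P23 (triangles), with short lines at the group means. Sycp3 dropped from a mean of 172 to 37.7 FPKM, whereas Ldhc rose from 0.92 to 15.8 FPKM beside 2644 FPKM in WT.

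Spermatid genes were at both ages far below the level of WT at P23, and several rose. For the libraries labelled P8 KO, that distance also holds the difference in age. Of 45 acrosome and sperm-egg genes, 27 passed the filter on low counts and 4 were at 0 in all 6 libraries, 10 rose and 3 fell. Members near 0 counts in the younger libraries, such as Acr, passed that filter only through P23 and could only rise. Limma gave 5 and 2 calls higher and lower and the Sertoli scale 7 and 6, and leaving out a single library (replicate 2 at P8, or replicate 1 or 2 at P23) left 1 fall. Acr, the acrosomal protease, had 0, 0.0343 and 0 FPKM and then 0.462, 0.925 and 0.574 FPKM (log2 fold change 5.95, SE 0.84, adjusted p = 8.17e-05, a call limma did not make at 0.70), against 179, 178 and 181 FPKM in WT. Spaca1, an acrosomal membrane protein, rose from 2.53, 2.24 and 1.98 FPKM to 8.85, 9.52 and 9.1 FPKM (log2 fold change 2.30, SE 0.14, adjusted p = 1.17e-07), with 144, 154 and 161 FPKM in WT. Crisp2, a cysteine-rich protein of the acrosome and tail, rose from 0.032, 0 and 0.199 FPKM to 7.96, 8.23 and 8.12 FPKM, with 1579, 1447 and 1491 FPKM in WT. Atp8b3, a flippase of the acrosome, rose from 0.499, 0.38 and 0.497 FPKM to 2.38, 2.53 and 2.79 FPKM. The P23 levels of all 4 genes were above the younger libraries without overlap and below every WT library. The ages did not overlap in 71.1% of all genes tested. The fall of Tex101, listed here for its role in sperm-egg binding, was that of a gene already high in early germ cells, from 237, 225 and 216 FPKM to 46, 48.6 and 47.1 FPKM.

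Genes of elongating spermatids were close to the limit of the counts. Prm1 and Prm2, the protamines, had 0 counts in the libraries labelled P8 KO and 1.46, 0.976 and 0.626 FPKM and 0.575, 1.12 and 0.819 FPKM at P23, at least 8.07-fold and 8.6-fold higher against a floor of 3 counts in each library. WT at P23 held 3212, 3754 and 3659 FPKM of Prm1. Tnp1, a transition protein, had 0, 4 and 7 counts and then 7, 4 and 4 and was not tested. The calcium channel gene Catsper1 had 0 counts in all 6 libraries and 5623, 5228 and 5266 counts in WT. Of 10 protamine and transition protein genes, 5 were tested and 4 called higher, Prm1, Prm2, Smcp and Odf1. Prm1, Prm2 and Smcp, at or near 0 counts in the younger libraries, passed the filter only through P23 and could only rise. Limma on log2(FPKM + 1) called 0 of them, with changes of 0.99, 0.87, 0.68 and 0.73. Odf1 also lost its call without replicate 3 at P8 (edgeR adjusted p = 0.0121) and without replicate 2 or 3 at P23 (0.0164 and 0.0125). In the fibrous sheath and outer dense fibre list, 10 of 23 tested genes of 33 rose and 0 fell, against 6 and 1 on the Sertoli scale and 2 and 1 by limma. Ropn1l, a sheath protein, rose from 7.09, 6.16 and 6.84 FPKM to 15.8, 14.2 and 16.6 FPKM, a call that ended on the Sertoli scale (0.89). Akap4, the scaffold of the sheath, was at 0.152, 0 and 0.0400 FPKM and 0.287, 0.317 and 0.13 FPKM with no call, except without replicate 1 at P8 (3.76) or with WT in the fit (2.12). Of 46 axoneme and motility genes tested, 15 rose and 2 fell, against 9 and 5 on the Sertoli scale, where the median turned to -0.12, and 5 and 0 by limma. Leaving out any library but replicate 2 at P23 left 1 fall. Among the rises was Meig1, from 11.2, 11.2 and 10.6 FPKM to 32.3, 36.1 and 27.3 FPKM. WT at P23 held 1193, 1273 and 1254 FPKM of Meig1. Among spermatid transcription regulators 3 of 23 rose and 3 fell, near the shares over all genes of 11.7% and 10.6%. The falls reached 6 by library size and 9 on the Sertoli scale, and limma gave 0 rises. Crem, the spermatid activator, was at 8.9, 12.7 and 7.49 FPKM and 11.6, 9.24 and 7.75 FPKM and was not called, and Taf7l, a TFIID subunit of germ cells, fell from 171, 172 and 170.2 FPKM to 45.5, 40.4 and 43 FPKM. In the testis histone list 1 of 4 tested genes fell, Hist1h2ba, from 1.44, 1.68 and 1.42 FPKM to 0.0924, 0.159 and 0 FPKM, a call that leaving out replicate 2 of the younger group ended (log2 change -3.47, edgeR adjusted p = 0.0111). That list had 2 falls by library size, on the Sertoli scale and by limma.

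Sertoli identity genes were present at both ages. Sox9, the factor that sets Sertoli fate, had 52.9, 50.8 and 50.3 FPKM in the libraries labelled P8 KO and 50.9, 52.5 and 53.9 FPKM at P23. Wt1 had 120.3, 109 and 114 FPKM and 100.4, 101 and 102 FPKM. Neither was called, and the direction of both turned under scaling on Sertoli genes. Of 24 identity genes, 6 rose and 2 fell, with 4 falls by library size and, on their own scale, 1 and 5. Gata1, an erythroid factor that Sertoli cells also use, rose from 31.3, 30.5 and 31.7 FPKM to 64.2, 66.6 and 65.3 FPKM (log2 fold change 1.38, SE 0.04, adjusted p = 4.09e-10). That call, like those of Cldn11, Inha and Amhr2, ended under scaling on the Sertoli list, of which Gata1 and Amhr2 are members.

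Of 18 tested genes of immature Sertoli cells, 8 fell and 2 rose (median -0.67). Amh, the anti-Müllerian hormone that Sertoli cells shut off at puberty, fell from 102, 101 and 98.8 FPKM to 30.2, 32.5 and 29.4 FPKM (log2 fold change -1.42, SE 0.04, adjusted p = 4.44e-10), and WT at P23 was at 1.52, 1.83 and 1.33 FPKM. Krt18, a keratin of immature Sertoli cells and of epithelia, fell from 6.35, 6.1 and 5.39 FPKM to 0.72, 0.768 and 0.996 FPKM, and its partner Krt8 fell from 7.65, 8.96 and 6.84 FPKM to 0.213, 0.258 and 0.216 FPKM. The rises in the list, of which 0 were left by library size, were Inha, the inhibin alpha subunit, from 399, 380.3 and 373 FPKM to 742, 762 and 711 FPKM, and Cst12, a cystatin. The thyroid hormone receptor Thra, which carries the signal that ends Sertoli division, fell from 75.6 to 23.3 FPKM on average.

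The maturing Sertoli list moved the other way, with 20 of 39 tested genes higher and 3 lower (median 1.09), or 10 and 5 on the Sertoli scale. Trf, the transferrin that carries iron to germ cells, had 9.73, 8.6 and 9.72 FPKM in the libraries labelled P8 KO, 171, 169.9 and 171 FPKM at P23 and 6.35, 6.29 and 5.21 FPKM in WT at P23 (log2 fold change 4.49, SE 0.05, adjusted p = 4.47e-13). Rhox5, an androgen-dependent homeobox gene of Sertoli cells, rose from 20.3, 18.8 and 17 FPKM to 129, 133 and 121 FPKM (log2 fold change 3.05, SE 0.07, adjusted p = 8.06e-11). Tsx, a testis-specific gene of the X chromosome, rose from 9.09, 8.7 and 7.49 FPKM to 269, 277 and 256 FPKM. The ages lay apart for each of these genes, as for 71.1% of all genes tested, and the P23 knockout was above WT as well. Lcn2, a lipocalin that binds iron-carrying siderophores, rose furthest among well-counted members, from 12.8, 15.9 and 14.7 FPKM to 556, 547 and 524 FPKM (log2 fold change 5.64, SE 0.07, adjusted p = 7.08e-13), with 231, 262 and 237 FPKM in WT. Defb19, a defensin of Sertoli cells, rose from 219, 252 and 226 FPKM to 866, 797 and 670.0 FPKM. Wnt5a, a signal listed with the niche, fell from 9.78, 8.43 and 9.26 FPKM to 3.64, 2.42 and 2.36 FPKM.

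Genes of the blood-testis barrier split, 5 of 30 rising and 6 falling, with 3 rises by library size and 1 on the Sertoli scale. Over all genes 11.7% rose and 10.6% fell. Cldn11, the claudin that seals the barrier, rose from 212, 225 and 227 FPKM to 375, 398 and 385 FPKM (log2 fold change 1.09, SE 0.04, adjusted p = 7.97e-10), and scaling on library size brought the change to 0.81 and ended the call. Cldn3, a claudin of the new barrier, rose from 11.2, 8.69 and 9.35 FPKM to 22.5, 24 and 19.8 FPKM and was at 33.6, 42.8 and 43.4 FPKM in WT, its call ending on the Sertoli scale (0.86). Espn, an actin bundler of Sertoli junctions, rose from 28.3, 27.4 and 25.3 FPKM to 80.5, 83.8 and 83.9 FPKM. Gja1, the gap junction protein connexin 43, was at 98.7, 98.5 and 104 FPKM and 129, 120.1 and 124 FPKM and was not called. Cldn1, common to many epithelia, fell from 7.23, 7.39 and 7.15 FPKM to 0.306, 0.405 and 0.226 FPKM.

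All called genes of the adult Leydig list rose, apart from 1 fall on the Sertoli scale. Of 34 adult Leydig and steroidogenic genes tested, 23 rose and 0 fell (median 1.63), and their sum went from 834 to 857 FPKM to 2437 to 2522 FPKM, with 909.8 to 920.1 FPKM in WT at P23. Star, which carries cholesterol into mitochondria, had 16, 15.5 and 16.3 FPKM in the libraries labelled P8 KO and 107, 106 and 105 FPKM at P23 (log2 fold change 3.02, SE 0.04, adjusted p = 6.94e-13). Cyp11a1, the first enzyme of steroid synthesis, rose from 45.5, 47.2 and 44.4 FPKM to 209.8, 219.7 and 207 FPKM (log2 fold change 2.50, SE 0.04, adjusted p = 2.22e-12). Cyp17a1, which makes androgen precursors, rose from 71.8, 69.5 and 64 FPKM to 212, 215 and 203 FPKM. Lhcgr, the LH receptor, rose from 4.92, 4.03 and 5.54 FPKM to 45.7, 46.6 and 45.9 FPKM (log2 fold change 3.54, SE 0.09, adjusted p = 1.61e-10), and WT at P23 was at 3.13, 2.45 and 2.33 FPKM. All 4 genes separated the ages without overlap, as did 71.1% of all genes tested.

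Hsd3b6, the 3β-hydroxysteroid dehydrogenase of adult Leydig cells, rose from 1.97, 1.56 and 2.03 FPKM to 206, 192 and 203 FPKM (log2 fold change 7.01, SE 0.07, adjusted p = 3.02e-13), beside 35.5, 35 and 32.4 FPKM in WT. Hsd3b1, the isoform present from fetal life, rose from 109.8, 109 and 105 FPKM to 245, 249 and 249 FPKM, and reads of so similar a pair may be split between them. Hsd17b3, the enzyme that completes testosterone and a marker of adult Leydig cells in these lists, was at 18.6, 20.1 and 20.2 FPKM and 14.1, 13.3 and 11.9 FPKM and was not called. The kallikrein Klk1b27, listed with adult Leydig cells, had 0 counts in each library labelled P8 KO and 933, 1169 and 1031 counts at P23, at least 407-fold higher against the floor of 3 counts per library. Klk1b27, Klk1b21 and Klk1b24 belong to a family of near-identical paralogs, so their single levels are uncertain. WT at P23 had 1142, 1142 and 1093 counts of Klk1b27.

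Fetal Leydig genes fell in part. Of 13 tested, 6 fell and 3 rose (median -1.02). Thbs2, a thrombospondin of fetal Leydig cells, fell from 10.4, 10.2 and 9.48 FPKM to 0.641, 0.738 and 0.967 FPKM (log2 fold change -3.39, SE 0.12, adjusted p = 1.62e-09). Dlk1, a Notch ligand relative of fetal and progenitor cells, fell from 159, 148 and 169 FPKM to 10.2, 8.57 and 8.53 FPKM (log2 fold change -4.09, SE 0.08, adjusted p = 1.46e-11). Insl3 itself is among the falls of this list. Agt, angiotensinogen, rose from 11.9, 13.4 and 12.5 FPKM to 324, 327 and 309.9 FPKM (log2 fold change 4.96, SE 0.05, adjusted p = 4.01e-13), with 74.7, 70.6 and 71.6 FPKM in WT.

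Macrophage genes rose nearly throughout. 24 of 25 tested genes rose and 0 fell (median 2.56), and their sum went from 168 to 182 FPKM to 1239 to 1324 FPKM, against 380.2 to 438 FPKM in WT at P23. Csf1r, the receptor that keeps macrophages alive, had 7.7, 7.81 and 6.62 FPKM in the libraries labelled P8 KO and 29, 30.1 and 28 FPKM at P23 (log2 fold change 2.26, SE 0.06, adjusted p = 1.94e-10), with 3.46, 3.5 and 3.32 FPKM in WT. Adgre1, which encodes the F4/80 antigen, rose from 3.01, 2.84 and 2.25 FPKM to 10.4, 9.3 and 10.7 FPKM. Cd74, the invariant chain of MHC class II, rose from 5.97, 6.41 and 4.71 FPKM to 134, 129 and 129 FPKM (log2 fold change 4.80, SE 0.08, adjusted p = 7.90e-12), with 11.8, 11.8 and 12.8 FPKM in WT. Lyz2, lysozyme of myeloid cells, rose from 42.2 to 394 FPKM on average. Aif1 was the member called higher at P23 yet far below WT, at means of 2.1 ± 0.333, 7.48 ± 2.21 and, in WT, 280.5 ± 28.1 FPKM (SD, n = 3). Aif1 thus made up most of the WT sum of the list. Lymphocyte and granulocyte genes were scarce. 6 of 16 were tested, 1 rose and 1 fell, and their sum was 6.8 to 7.42 FPKM and 2.7 to 3.31 FPKM. On the Sertoli scale and by limma 0 rises were left.

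The antigen-presenting genes H2-Aa, Cd74 and H2-Eb1 had the largest fold changes of the list. H2-Aa (chromosome 17, 34282744 to 34287823, minus strand) had 2.68, 2.98 and 2.37 FPKM and then 56, 65.7 and 64.1 FPKM (log2 fold change 4.81, SE 0.10, adjusted p = 2.16e-11). H2-Eb1 (chromosome 17, 34305867 to 34316674, plus strand) had 3.62, 1.67 and 2.01 FPKM and then 39.8, 46.3 and 41.7 FPKM (log2 fold change 4.40, SE 0.21, adjusted p = 1.22e-08). WT at P23 was at 5.47, 5.37 and 5.93 FPKM and 4.15, 4.16 and 4.78 FPKM. Class II genes are similar in sequence, so reads may be shared among relatives. Their promoters are shown because these genes rose together and class II promoters are known for the Y box, an inverted CCAAT element. The windows are the 250 bases before the RefSeq starts on GRCm38.p6, chr17:34287824-34288073 for H2-Aa on the minus strand and chr17:34305617-34305866 for H2-Eb1 on the plus strand, with GATTGG or its reverse complement CCAATC in capitals.
H2-Aa promoter: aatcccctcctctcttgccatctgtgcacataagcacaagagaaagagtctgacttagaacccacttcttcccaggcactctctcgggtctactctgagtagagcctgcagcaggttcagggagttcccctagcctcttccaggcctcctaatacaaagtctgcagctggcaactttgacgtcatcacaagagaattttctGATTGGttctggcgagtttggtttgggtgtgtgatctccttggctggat
H2-Eb1 promoter: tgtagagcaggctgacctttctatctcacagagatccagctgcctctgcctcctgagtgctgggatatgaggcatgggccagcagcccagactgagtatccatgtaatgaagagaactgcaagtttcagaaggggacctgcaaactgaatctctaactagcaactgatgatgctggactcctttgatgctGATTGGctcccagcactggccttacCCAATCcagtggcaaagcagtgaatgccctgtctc
The letters begin 49 bases before the start in H2-Aa and 60 and 35 bases before it in H2-Eb1. Of 32851 RefSeq windows of this length, 4783 (14.6%) held GATTGG on either strand, and the matches describe the letters only.

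Complement genes rose with the macrophage genes. Of 36 complement and coagulation genes tested, 22 rose and 1 fell (median 1.69). C3, the central component, had 2.88, 2.44 and 2.87 FPKM and then 55.6, 55.7 and 55.8 FPKM (log2 fold change 4.63, SE 0.06, adjusted p = 7.66e-13), with 2.98, 3.09 and 2.71 FPKM in WT. Serping1, the C1 inhibitor, rose from 82.4 to 378 FPKM on average. Thbd, thrombomodulin of vessels, was the gene that fell, from 34.2, 34.6 and 33.7 FPKM to 10.8, 11.4 and 12.1 FPKM. In the TNF and cytokine list 9 of 33 rose and 2 fell, with 4 falls on the Sertoli scale and 1 when any library but replicate 2 at P23 was left out. Vcam1, an adhesion molecule that Leydig cells also carry, rose from 17.2, 17.2 and 17.8 FPKM to 127, 133 and 132 FPKM (log2 fold change 3.19, SE 0.03, adjusted p = 4.21e-13).

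**Figure D3:**
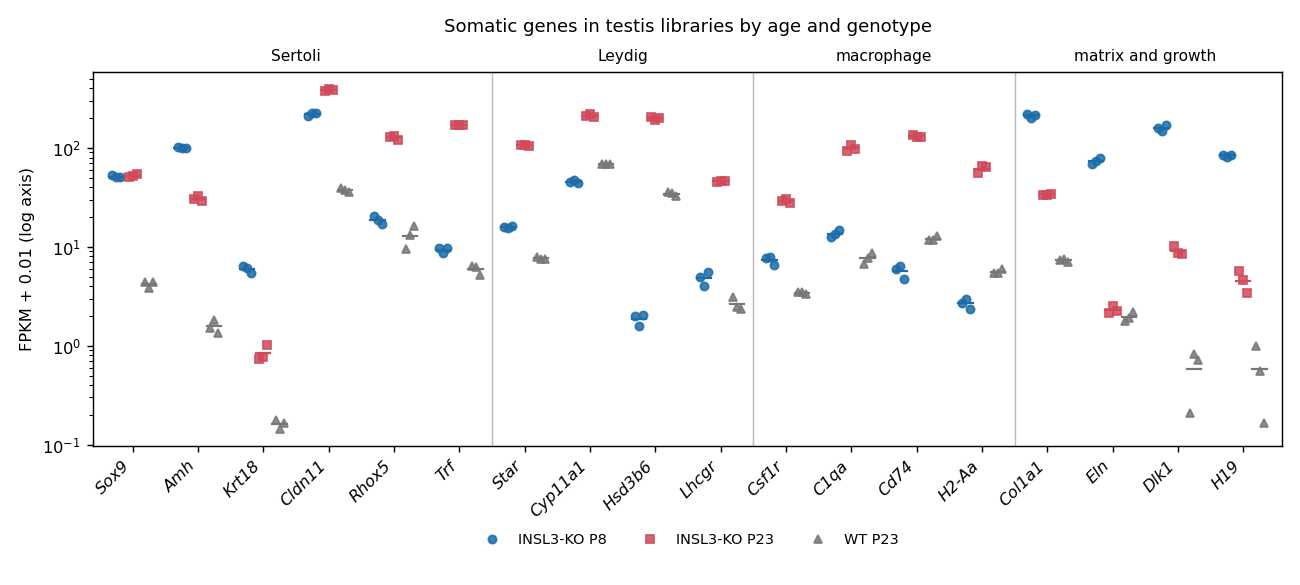
FPKM plus 0.01 on a log axis of 18 somatic genes in each library labelled INSL3-KO at P8 (circles) and P23 (squares) and in WT at P23 (triangles), with short lines at the group means. Hsd3b6 climbed from a mean of 1.85 to 200.3 FPKM and Cd74 from 5.7 to 131 FPKM, while Dlk1 dropped from 159 to 9.11 FPKM and Sox9 stayed near 52.4 FPKM.

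Falls outnumbered rises among matrix, growth and division genes. Of 40 matrix genes 21 fell and 2 rose (median -1.06). Col1a1, a chain of type I collagen, had 222, 203 and 216 FPKM in the libraries labelled P8 KO and 33.8, 33.4 and 34.3 FPKM at P23 (log2 fold change -2.37, SE 0.04, adjusted p = 5.08e-12). Eln, elastin, fell from 68.9, 74.6 and 78.4 FPKM to 2.11, 2.49 and 2.25 FPKM (log2 fold change -4.73, SE 0.07, adjusted p = 3.44e-12), and WT at P23 was at 1.77, 1.91 and 2.19 FPKM. Dcn, the proteoglycan decorin, rose from 269.9, 276 and 265 FPKM to 534, 544 and 548 FPKM, a call that ended on the Sertoli scale (0.68), where the list had 0 rises. Among 22 genes of postnatal growth and imprinting, 13 fell and 1 rose. Igf2, a growth factor, fell from 27.4, 29.1 and 29.9 FPKM to 7.09, 9.75 and 7.73 FPKM, and H19, the imprinted RNA beside it, fell from 85.8, 81.9 and 85 FPKM to 5.66, 4.6 and 3.41 FPKM. The imprinted gene Peg10 rose from 22, 20.8 and 22 FPKM to 70.9, 74.9 and 79.3 FPKM.

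Of 30 mitotic genes 19 fell and 1 rose (median -1.12). Mki67, which marks cycling cells, fell from 14.5 ± 0.218 FPKM to 3.03 ± 0.27 FPKM (mean ± SD, n = 3), with an edgeR log2 fold change -1.97, SE 0.07, adjusted p = 9.23e-10, with 3.22, 2.7 and 2.7 FPKM in WT. The rise was Cdkn1a, the p21 inhibitor of the cell cycle, from 4.52, 3.01 and 4.46 FPKM to 20.6, 20.7 and 19.5 FPKM (log2 fold change 2.65, SE 0.13, adjusted p = 1.65e-08). In the germ cell death and DNA damage list, 4 of 21 rose and 1 fell, with 3 falls by library size, 4 on the Sertoli scale and 2 without replicate 3 at P8. The rises there were Cdkn1a, Bbc3, Fas and Sesn2, known targets of p53, and the fall was the damage kinase Atm, from 6.54, 5.95 and 6.3 FPKM to 1.77, 1.79 and 1.96 FPKM. Bbc3 went from 2.2 to 6.35 FPKM and Fas from 1.21 to 4.25 FPKM on average. In the TGF-beta and BMP list 7 of 42 rose and 6 fell, beside 11.7% and 10.6% of all genes. The calls were 4 and 10 by library size and 0 and 16 on the Sertoli scale. Amhr2, the AMH receptor, rose from 207, 192 and 189 FPKM to 441, 492 and 441 FPKM.

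Few myoid genes were called, and endothelial genes were called in both directions. Over all genes 11.7% were called higher and 10.6% lower. Acta2, the actin of myoid cells, had 474, 449.7 and 447 FPKM and then 243, 254 and 233 FPKM and was not called, though it was on the Sertoli scale (-1.23). Of 15 myoid genes 2 fell, Cnn1 and Actg2, and 4 by library size and 8 on the Sertoli scale. Of 15 endothelial genes 3 rose and 2 fell, or 6 on the Sertoli scale. Cdh5, the cadherin of vessels, fell from 14.7, 13.4 and 14.2 FPKM to 4.78, 4.45 and 4.3 FPKM, and Robo4, a vessel receptor, rose from 3.65, 2.77 and 2.75 FPKM to 16.1, 16.5 and 16.3 FPKM.

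Heat shock genes depended on the scaling. Of 25 tested, 2 rose and 2 fell, beside 11.7% and 10.6% of all genes. The calls were 1 and 5 by library size and 0 and 5 on the Sertoli scale. The median of 0.13 turned to -0.15 under library-size scaling. Hspa1a, an inducible Hsp70 gene, had 13.7, 12.7 and 13.5 FPKM and then 5.56, 7.12 and 5.41 FPKM and its near-identical copy Hspa1b had 11, 13.2 and 11.5 FPKM and 10.3, 9.01 and 9.4 FPKM, neither called, and reads may be split between them. Hspa1a was called lower by library size (-1.13), on the Sertoli scale (-1.46) and by limma (-1.03). Hspb1, a small heat shock protein, rose from 127, 122 and 114 FPKM to 290.3, 305 and 278 FPKM (log2 fold change 1.56, SE 0.05, adjusted p = 2.99e-10), a call that scaling on Sertoli genes ended. Cirbp and Rbm3, RNA-binding proteins induced by mild cold, fell from 127, 130.1 and 132 FPKM to 38.1, 39.7 and 38.2 FPKM and from 202, 215 and 191 FPKM to 48.6, 54 and 52.8 FPKM. Their WT levels at P23 were 47.2, 55.5 and 50.3 FPKM and 25.3, 21.6 and 25.7 FPKM, a difference from the P23 knockout that was called for Cirbp (-1.06) but not for Rbm3 (0.54). Both values hold on the TMM scale only and were not repeated under other scalings. Those moved the median of all genes against WT from -0.135 to 0.430 by library size and to -2.235 on the Sertoli genes. Germ cell chaperones had 3 rises and 0 falls in 12 tested genes, Tcp11 rising from 0.811, 0.852 and 0.508 FPKM to 4.59, 4.17 and 4.4 FPKM beside 1296, 1396 and 1401 FPKM in WT.

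Of all annotated genes with at least 10 CPM (counts scaled to library size) in the higher group and groups that did not overlap, the 10 largest rises included Klk1b27, Klk1b21, Klk1b24, Bhmt and Crisp2. Aqp8, a water channel, rose from 0.112, 0.0673 and 0.116 FPKM to 114, 122 and 117 FPKM (log2 fold change 10.38, SE 0.09, adjusted p = 2.78e-13), with 15.4, 16.9 and 17.2 FPKM in WT. Ugt3a2, a glycosyltransferase, rose from 0.0255, 0.115 and 0 FPKM to 27.1, 29.3 and 29.8 FPKM, where WT had 0.502, 0.26 and 0.679 FPKM. Serpina3n, a protease inhibitor of inflammation, rose from 0.258, 0.0465 and 0.273 FPKM to 44.5, 40.6 and 40.8 FPKM (log2 fold change 7.97, SE 0.23, adjusted p = 2.44e-10). Bhmt, an enzyme that methylates homocysteine, rose from 0.733, 0.53 and 0.586 FPKM to 70.7, 72.3 and 70.8 FPKM. The others were Kel and Trpc5os. Aqp8, Ugt3a2 and Serpina3n thus passed from near 0 to well above the level of WT at P23. Sertoli identity genes stood above WT as well, with sums of 2048 to 2121 FPKM in the P23 knockout and 357.5 to 378.3 FPKM in WT.

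The 10 largest falls held genes of epithelia as well as Insl3 and Eln. Crisp1, a secreted protein of the epididymis, had 70.6, 73.9 and 68.4 FPKM in the libraries labelled P8 KO and 0 counts in each P23 library, at least 1150-fold lower against the floor of 3 counts per library. Serpina1f had 8.22, 7.26 and 7.62 FPKM and then 0, 0 and 0.0165 FPKM, and Cdh16, a cadherin of kidney and duct epithelium, 10.5, 7.77 and 8.8 FPKM and then 0.0784, 0 and 0.0315 FPKM. Krt8, Acta1, Col9a2, H2-Q10 and Sel1l3 made up the rest. Acta1, the actin of skeletal muscle, had 15.3, 13.1 and 13.7 FPKM and then 0.285, 0.245 and 0.0413 FPKM. These genes were high in all 3 libraries labelled P8 KO and near 0 at P23. Of 19 epididymis and efferent duct genes 6 were tested, with 3 falls and 1 rise, and their sum was 9.71 to 10.1 FPKM and then 4.12 to 6.26 FPKM, leaving out Crisp1, which was not in the list, while Lcn5, Lcn9, Lcn10 and Crisp4 were at 0 in all 6 libraries. By limma this list had 1 fall and 0 rises. The sums of other tissues were 19.8 to 26.7 and 35.7 to 37.1 FPKM for skeletal muscle, 8.94 to 12.9 and 12.9 to 15.3 FPKM for liver, 53.3 to 54.7 and 59.5 to 61.5 FPKM for fat and 309 to 327 and 203 to 244 FPKM for erythroid genes, in which 2, 3, 5 and 2 genes rose and 1, 0, 1 and 0 fell. On the Sertoli scale the falls, in the same order, were 2, 1, 2 and 1. Limma gave 1 rise for skeletal muscle and 3 for fat. The part of these tissues in the changes, Krt8, Krt18 and Cldn1 included, was not tested.

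Set against WT of the same age, the P23 knockout showed where its change ended. Of 20657 genes tested, 5948 were higher (28.8%) and 7671 lower (37.1%) in the knockout, together 65.9%. This comparison shares its knockout libraries with the comparison of ages, so the values stand side by side. The median of all genes was -0.135 and moved to 0.430 on library size and to -2.235 on the Sertoli genes. Where it is smaller than the shift of the median, a negative difference turns by library size and a positive difference on the Sertoli genes. Synaptonemal genes were lower in 12 of 14 members (median -2.77), pachytene genes in 26 of 28 (-4.68), acrosome genes in 40 of 43 (-7.84) and fibrous sheath genes in 33 of 33 (-9.90). Protamine and transition protein genes were lower in 10 of 10 (-12.45). Members near 0 counts in the knockout passed the filter on low counts only through WT and could only be called lower. Between the ages, 27 acrosome, 23 fibrous sheath and 5 protamine and transition protein genes had passed it. Medians this low depend on counts near 0 and are no bounds. Stem and progenitor genes were higher in 11 and lower in 4 of 24, Zbtb16 by 2.17 on the log2 scale. Sertoli identity genes were higher in 21 of 24 (median 2.07) and myoid genes in 14 of 15 (1.89). Macrophage genes were higher in 23 of 25 (2.56) and adult Leydig genes in 23 of 34 (1.48). The largest excess over WT among well-counted genes was in Lingo2, Ugt3a2, Rps12l1, Tnfrsf12a and Rab7b, where Rps12l1 rested on one P23 library (85, 18.4 and 1.95 FPKM). Tnfrsf12a, a TNF receptor family member, was at 45.9, 46.8 and 44.2 FPKM and 36.3, 38.2 and 36 FPKM in the libraries labelled knockout and at 0.888, 0.295 and 1.12 FPKM in WT. The largest deficits were Acsbg2, Csnka2ip, Tex35, Spatc1 and Tmco2, each at 0 counts in the 3 P23 knockout libraries and between 7684 and 9996 counts in the WT libraries. These genes, too, passed the filter only through WT and could only be called lower.

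The change in the knockout was then compared with that in INSL3-KI testis over the same ages, as an interaction in which a constant difference between the tables cancels. Of 17052 genes tested, the knockout change was above the INSL3-KI change in 1328 (7.79%) and below it in 1997 (11.7%), together 19.5%. Without INSL3-KI P8 replicate 2 and P23 replicate 3, the counts were 3062 and 3744 of 17459, and 3311 of the 3325 first calls were made again in the same direction. Leaving out any single library other than INSL3-KI P8 replicate 2 moved at least one of these counts by over 1.5 times, the former to between 412 and 2817 and the latter to between 904 and 2974. Replicates of the INSL3-KI groups spread more than the knockout replicates, with biological coefficients of variation of 0.327 and 0.354 against 0.0957 and 0.124. The median of all differences was 0.048 and moved to -1.089 when scaled on the Sertoli genes.

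For many meiotic genes the knockout change lay below that in INSL3-KI. Sycp3 changed by -1.91 in the knockout and by 0.34 in INSL3-KI, a difference of -2.33 (edgeR adjusted p = 0.00172, and -2.85 without both libraries). Spo11 changed by -2.28 and by 1.29, a difference of -3.68 (edgeR adjusted p = 0.00194, and -4.45 without both libraries). For the 14 synaptonemal genes tested the change was above that in INSL3-KI in 0 and below it in 10, or in 0 and 12 without both libraries. For the 28 recombination genes the change was above that in INSL3-KI in 0 and below it in 12, or in 0 and 21 without both. Ccna1 changed by 7.42 in INSL3-KI, a difference of -6.86 (edgeR adjusted p = 0.00185, and -8.87 without both libraries) from the knockout. Ldhc rested on the libraries that stood apart, with a difference of -0.14 (edgeR adjusted p = 0.981, and -6.31 without both libraries), and the latter was called (edgeR adjusted p = 8.10e-09). Stra8 changed by -2.10 in the knockout and by -1.96 in INSL3-KI, and the difference of -0.23 (SE 0.22) was not called, nor was that of -0.31 without both libraries.

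Macrophage and Leydig genes differed in the other direction. For the 25 macrophage genes the change was above that in INSL3-KI in 20 and below it in 0, or in 21 and 2 without both libraries. Cd74 changed by 4.80 in the knockout and by 0.59 in INSL3-KI, a difference of 4.15 (edgeR adjusted p = 0.00105, and 4.60 without both libraries). For the 34 adult Leydig genes the change was above that in INSL3-KI in 16 and below it in 1, or in 18 and 3 without both. Lhcgr changed by 3.54 and by 0.47, a difference of 3.02 (edgeR adjusted p = 0.00214, and 3.70 without both libraries). Cyp17a1 did not follow, with a difference of -0.38 that was not called and one of -1.31 that was called without both libraries. Trf changed by 4.49 against 1.68 in INSL3-KI, a difference of 2.76 (edgeR adjusted p = 0.00309, and 3.13 without both libraries). Eln changed by -4.73 against -2.17, a difference of -2.66 (edgeR adjusted p = 0.00117, and -2.78 without both libraries). Igf2 and Dlk1 gave differences of 0.34 (SE 0.31) and -0.09 (SE 0.42) that were not called, and 0.66 and 0.43 without both libraries. A positive difference smaller than the shift of the median does not keep its sign when libraries are scaled on the Sertoli genes.

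**Figure D4:**
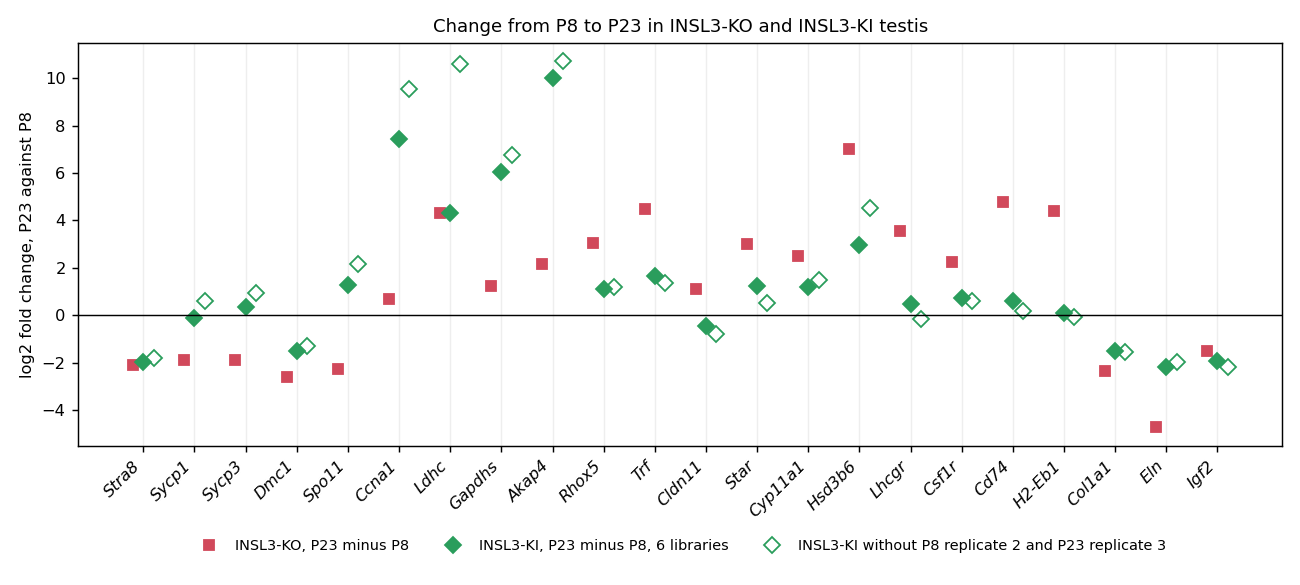
Log2 fold change from P8 to P23 of 22 genes in libraries labelled INSL3-KO (squares), in all 6 INSL3-KI libraries (filled diamonds) and in INSL3-KI without P8 replicate 2 and P23 replicate 3 (open diamonds). Meiotic genes such as Spo11 lie lower in INSL3-KO (-2.28 against 1.29), whereas Cd74 and Lhcgr lie higher, and Stra8 lies at -2.10 and -1.96.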

How the data were processed

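Total RNA of C57BL/6J testes was sequenced as mRNA libraries. The authors deposited counts and FPKM values per gene in 2 tables. Per the submitters' processing notes reads were aligned with HISAT2 to GRCm38, while the counter, its annotation and the strand setting are not given in the sources used here. The deposited FPKM values follow library size and are shown as levels. Tests used the deposited counts of Ensembl genes, and 15035 entries outside the annotation (0.526% to 0.617% of counts in the 6 libraries) were left out.

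Counts were filtered with filterByExpr (minimum count 10, minimum total 15), scaled by TMM and fitted with the edgeR 4.0.16 quasi-likelihood test in R 4.3.3, on the 6 libraries alone for the comparison of ages. The difference between INSL3-KO and INSL3-KI changes was an interaction over the 12 libraries of both genotypes. A call needed a Benjamini-Hochberg adjusted p under 0.01 and a fold of at least 2, the thresholds of the study. Scripts were tested on simulated data. Of simulated 2-fold changes, 18 of 48 were called between the ages and 0 of 49 in the interaction. Of 4-fold changes, 47 of 48 and 7 of 50 were called. A gene that was not called may therefore still have changed, above all in the interaction. DESeq2 1.42.0 and limma 3.58.1 on log2(FPKM + 1) were alternatives. P-values measure the spread between 3 libraries a group.

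Genes named were Insl3 and Rxfp2, landmark genes of 40 lists, the largest called rise and fall of each list and the 10 largest of each direction overall (mean of at least 10 CPM in the higher group, groups not overlapping), and the 5 largest in each direction of the other comparisons. Further genes were chosen as examples after their values were seen. Members and lists were chosen with earlier results of these data known. Of 914 list genes 901 matched the table. Symbols and loci came from GENCODE M21 and promoters from RefSeq on GRCm38.p6, where 121 of 168 named genes matched. Some landmark genes are not reported here.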

Additional observations from a re-analysis of the deposited data

Results flagged for a closer look

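The change from P8 to P23 differed between INSL3-KO and INSL3-KI, by the edgeR interaction test, in 1328 genes above and 1997 below the INSL3-KI change. The largest excesses of the knockout change were Klk1b27 with 9.12 on the log2 scale (9.08 without INSL3-KI P8 replicate 2 and P23 replicate 3), Aqp8 with 5.04 (3.51), Serpina3n with 4.92 (4.89), Klk1b21 with 4.75 (3.63, no longer called) and H2-Eb1 with 4.26 (4.48). The largest deficits were Tex36 with -16.79, Tmco2 with -14.40, Amer2 with -12.69, Fam71d with -12.39 and Efcab3 with -12.16. Tex36, Tmco2 and Amer2 had 0 counts in each P23 knockout library, and Efcab3 had 59, 81 and 68 counts in the libraries labelled P8 KO and 46, 70 and 65 at P23. All of these genes were at or near 0 in INSL3-KI at P8, Efcab3 with 0, 0 and 0 FPKM there and 5.98, 11.7 and 1.95 FPKM at P23, so that the fitted values depend on the prior count and are no bounds.

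Among 2001 loci outside the annotation that passed the filter, 381 were called higher at P23 than in the libraries labelled P8 KO and 116 lower. They carry no gene name and enter no comparison above.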

How the results depend on the processing

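The comparison of ages gave 2149 higher and 1948 lower calls. Library-size scaling gave 2949 lower, scaling on the Sertoli list 1119 higher and 4849 lower, limma on log2(FPKM + 1) 938 higher, limma on log2(FPKM + 0.1) 2948 lower, and a fold of at least 4 gave 925 and 561. Higher calls made up 52.5% of calls, against 34.5% by library size, 18.8% by the Sertoli list, 37.5% with FPKM + 1 and 34.4% with FPKM + 0.1. Leaving out each replicate gave 2036 to 2084 higher and 1775 to 1954 lower. For the difference from INSL3-KI, library size gave 585 above (25.2% of calls, against 39.9%) and the Sertoli list 69 above and 4893 below (1.39%). Leaving out 1 library gave 412 to 2817 above and 904 to 2974 below, the highest above without INSL3-KI P23 replicate 3, and leaving out both libraries that stood apart, chosen after seeing the data, gave 3062 and 3744. Against WT the Sertoli list gave 298 higher and 14114 lower (2.07% of calls higher, against 43.7%), and library size 54.8%. The cause of these shifts was not tested.

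Replicate numbers did not pair the samples, with correlations of deviations from -0.024 to 0.018 between the ages. The replicate block gave 2018 higher and 1838 lower calls between the ages, 1294 and 1934 against INSL3-KI and 5482 and 7360 against WT, and changed no call of a named gene.

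Genes that were not called changed sign. By library size these were Pdha1 at -0.04, Gapdh at -0.14, Crem at -0.13, Dnah8 at -0.07, Wt1 at -0.14, Inhbb at -0.22 and Efcab3 at -0.27. On the Sertoli list they were Mybl1 at -0.04, Hspa2 at -0.22, Pgk1 at -0.19, Ldha at -0.30, Pdha1 at -0.37, Gapdh at -0.47, Crem at -0.45, Dnah8 at -0.39, Sox9 at -0.29, Wt1 at -0.47, Inhbb at -0.55, Gja1 at -0.01 and Efcab3 at -0.59. With limma on log2(FPKM + 1) they were Ldha at -0.07, Pdha1 at -0.05, Gapdh at -0.13, Crem at -0.01, Dnah8 at -0.03, Wt1 at -0.18, Inhbb at -0.23 and Efcab3 at -0.17. Leaving out replicates gave Efcab3 -0.14 to 0.17, Hspa1b -0.09 to 0.05, Dnah8 -0.02 to 0.34 and Gapdh -0.37 to 0.37.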

Other observations

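Genes of lists not described above moved in the same libraries. Il1a, an inflammatory cytokine, had 0.304, 0.143 and 0.14 FPKM in the libraries labelled P8 KO and 2.74, 3.42 and 2.97 FPKM at P23 (log2 fold change 4.19, SE 0.31, adjusted p = 4.45e-07 by the edgeR quasi-likelihood test), and WT at P23 was at 0.292, 0.406 and 0.418 FPKM. Ptgs2, the inducible cyclooxygenase, fell from 1.44, 1.89 and 1.63 FPKM to 0.0394, 0.0204 and 0.0242 FPKM. Cfd, a complement protease that fat cells secrete, rose from 0.709, 0.326 and 0.0874 FPKM to 10.2, 10.5 and 9.94 FPKM, beside 2.5, 2.63 and 3.17 FPKM in WT. Ptgds, a prostaglandin synthase listed with Sertoli cells, rose from 9.59, 9.17 and 8.26 FPKM to 172, 161 and 168 FPKM, and WT was at 97.5, 103 and 105 FPKM. Ctcfl, a germ cell relative of CTCF, fell from 2.64, 2.12 and 1.9 FPKM to 0.149, 0.115 and 0.207 FPKM.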
